A study of Solanum lycopersicum with 9 samples.

Results

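The light-harvesting chlorophyll a/b binding protein genes of tomato (Solanum lycopersicum, cultivar M82) were followed in leaf messenger RNA of plants that had lost the use of most of their leaves. The family was taken as 32 listed loci, given as genes of the LHCA and LHCB groups, and all 32 were found among the 23195 genes of the count table by the locus identifier before the version number. Of these loci 8 bear neighbouring identifiers on chromosome 2, 5 lie on chromosome 3, 4 on chromosome 12 and 3 each on chromosomes 6 and 7. Chromosomes 1, 5, 8 and 10 hold 2 each and chromosome 9 holds 1.

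All groups were wild-type plants raised in a growth chamber and then grown in pots in a greenhouse under sunlight, and each group had 3 biological replicates. In the defoliation group every leaf except the measured one was cut off, and in the shading group aluminium foil covered all leaves except the youngest fully expanded one. Both treatments were made 1 week after the first flowers opened, and RNA came from the uncovered remaining leaf or from parallel control leaves. The labels of the treated libraries carry the number 48 without a unit and those of the controls carry none, so what that number marks cannot be told apart from the treatments. Plant age is given only by the flowering stage, and the sources used here do not give the time of day of sampling.

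Light-harvesting proteins are made from nuclear genes, imported into the chloroplast and set into the thylakoid membrane, where they bind chlorophyll a, chlorophyll b and carotenoids and pass the energy of absorbed light to the reaction centres. LHCA proteins form the antenna of photosystem I, and LHCB proteins that of photosystem II, where the major members assemble into trimers and the minor ones connect them to the core. Their transcripts are known in leaves as abundant, and as controlled by light, the circadian clock and sugars. In tomato the major antenna proteins are encoded by tandem groups of closely similar genes.

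The reference gene table (RefSeq, assembly SLM_r2.1) pairs none of the 32 identifiers with a symbol, so no member is assigned to LHCA or LHCB here and members are ordered by chromosome run and by count. That table lists 17 genes with a CAB or LHC symbol, among them Cab-1A and CAB1B on chromosome 2 and CAB-10A, with Lhcb6 as a synonym, on chromosome 1. These lie on chromosomes 1, 2, 3, 5, 6, 7, 10 and 12, each of which also holds members. Transcript lengths are not given either, so CPM values (counts scaled to library size by the TMM method) are set between libraries for one gene, while an order of genes by CPM is an order of read numbers and not of transcript levels.

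The members were detected in all 9 libraries, with at least 23 counts in each. By mean CPM 15 of them were among the 100 most abundant genes and 24 among the 500 most abundant, which is the only check of the leaf mesophyll label that these identifiers allow. Total counts per library ranged from 17617138 to 31012772, the lowest being shading replicate 3. All 32 members passed the filter on low counts and were tested together with all other genes that passed it, 20480 in all.

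The family as a whole held a larger part of the library counts under shading than in the other groups. The 32 genes together made up 3.95%, 4.79% and 4.39% of all counts in control leaves, 3.96%, 4.35% and 3.03% after defoliation and 4.87%, 6.24% and 6.58% under shading. The means were 4.38% ± 0.418, 3.78% ± 0.674 and 5.89% ± 0.906 (SD, n = 3). All 3 shading libraries lay above all 6 others, by a narrow margin for shading replicate 1, while the control and defoliation libraries overlapped. This sum does not depend on how reads were divided among near-identical members. In RNA from tissue labelled leaf mesophyll, a change in the share of cells that express a gene and a change in RNA per cell cannot be told apart.

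**Figure D1:**
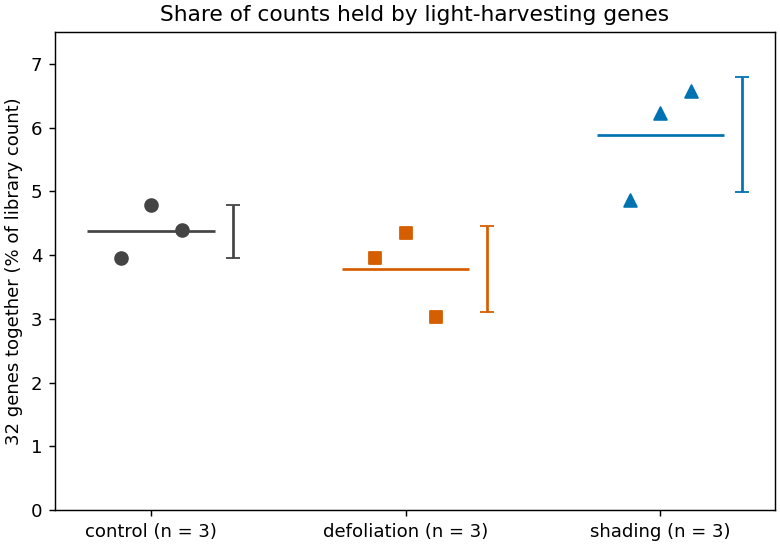
Percent of each library's total count held by the 32 light-harvesting genes together (vertical axis) in the 3 groups (horizontal axis). Points are libraries, horizontal lines are means and error bars are SD over 3 libraries; the shading libraries lie between 4.87% and 6.58%, above the control and defoliation libraries.

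Other abundant genes also took a larger share under shading. The 85 remaining genes among the 100 most abundant held 24.1% to 25.8% of counts in control, 21.1% to 24.5% in defoliation and 27.5% to 29.4% in shading libraries. Of these 85 genes 34 were called higher and 11 lower under shading against control, with a median log2 fold change of 0.35, against 0.62 for the 15 members in the same abundance class. What moved these genes with the family was not tested.

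Within a group the members moved together from library to library. In control replicate 2 all 32 lay above their group mean on the log2(CPM + 0.5) scale and in control replicate 1 all 32 lay below it, with median deviations of 0.21 and -0.26. Defoliation replicate 3 held 31 of 32 below the mean (1 above, median deviation -0.36), and shading replicates 1 and 3 had median deviations of -0.30 and 0.31. Over all tested genes the median deviation of a library lay between -0.02 and 0.02, but TMM scaling itself holds that median near 0. Whether other groups of genes moved together in the same way was not tested. The members are therefore not independent of each other, and a count of members describes 1 family in 3 libraries per group. The share of the other abundant genes was likewise highest in control replicate 2 and in shading replicate 3 and lowest in defoliation replicate 3 within their groups.

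**Figure D2:**
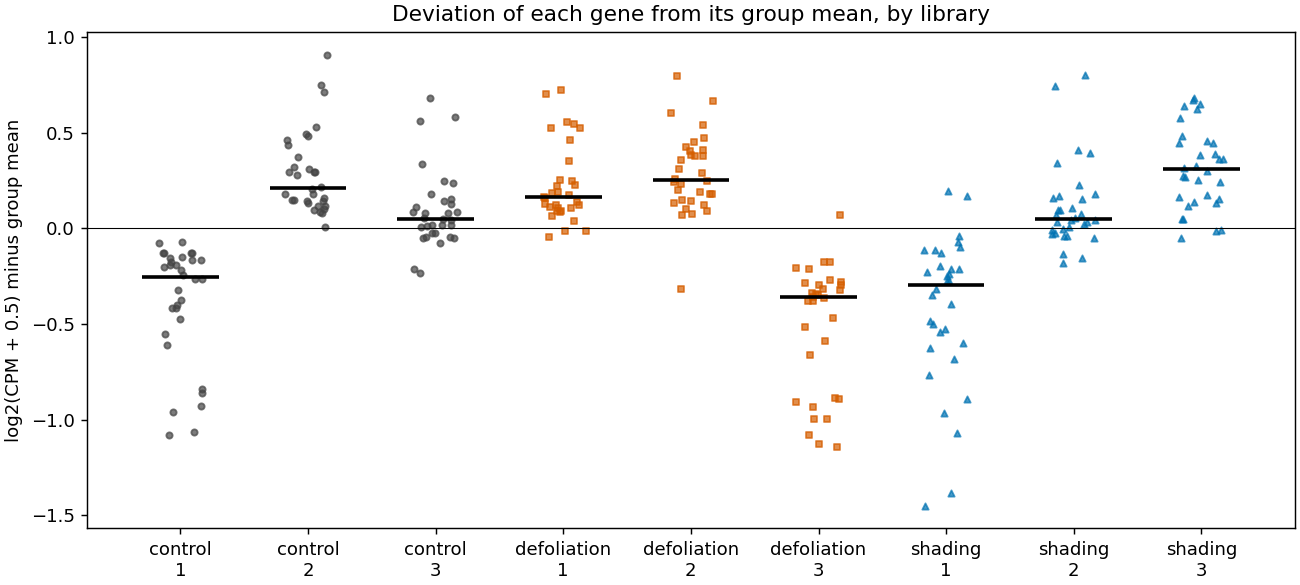
Deviation of each of the 32 genes from its own group mean on the log2(CPM + 0.5) scale (vertical axis) in each of the 9 libraries (horizontal axis). Each point is a gene and black lines are medians; nearly all genes of control replicate 1, defoliation replicate 3 and shading replicate 1 lie below 0.

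Shaded plants were compared with controls to ask how these transcripts differ in a lit leaf when all other leaves are darkened but attached. Under shading 22 of 32 members rose and 0 fell, while over all genes tested 16% rose and 14.2% fell (edgeR quasi-likelihood test, adjusted p below 0.05 over 20480 genes). The members' median log2 fold change was 0.88, beside -0.02 for all genes, and 30 of 32 values were above 0. The shading and control libraries did not overlap for 24 members, all higher under shading, against 23.1% of all genes in that direction and 23.2% in the other. No member had an unadjusted p below 0.05 in the lower direction, where 20.5% of all genes did. DESeq2 called 23 members higher and 0 lower, against 18.2% and 15.7% of all genes.

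**Figure D3:**
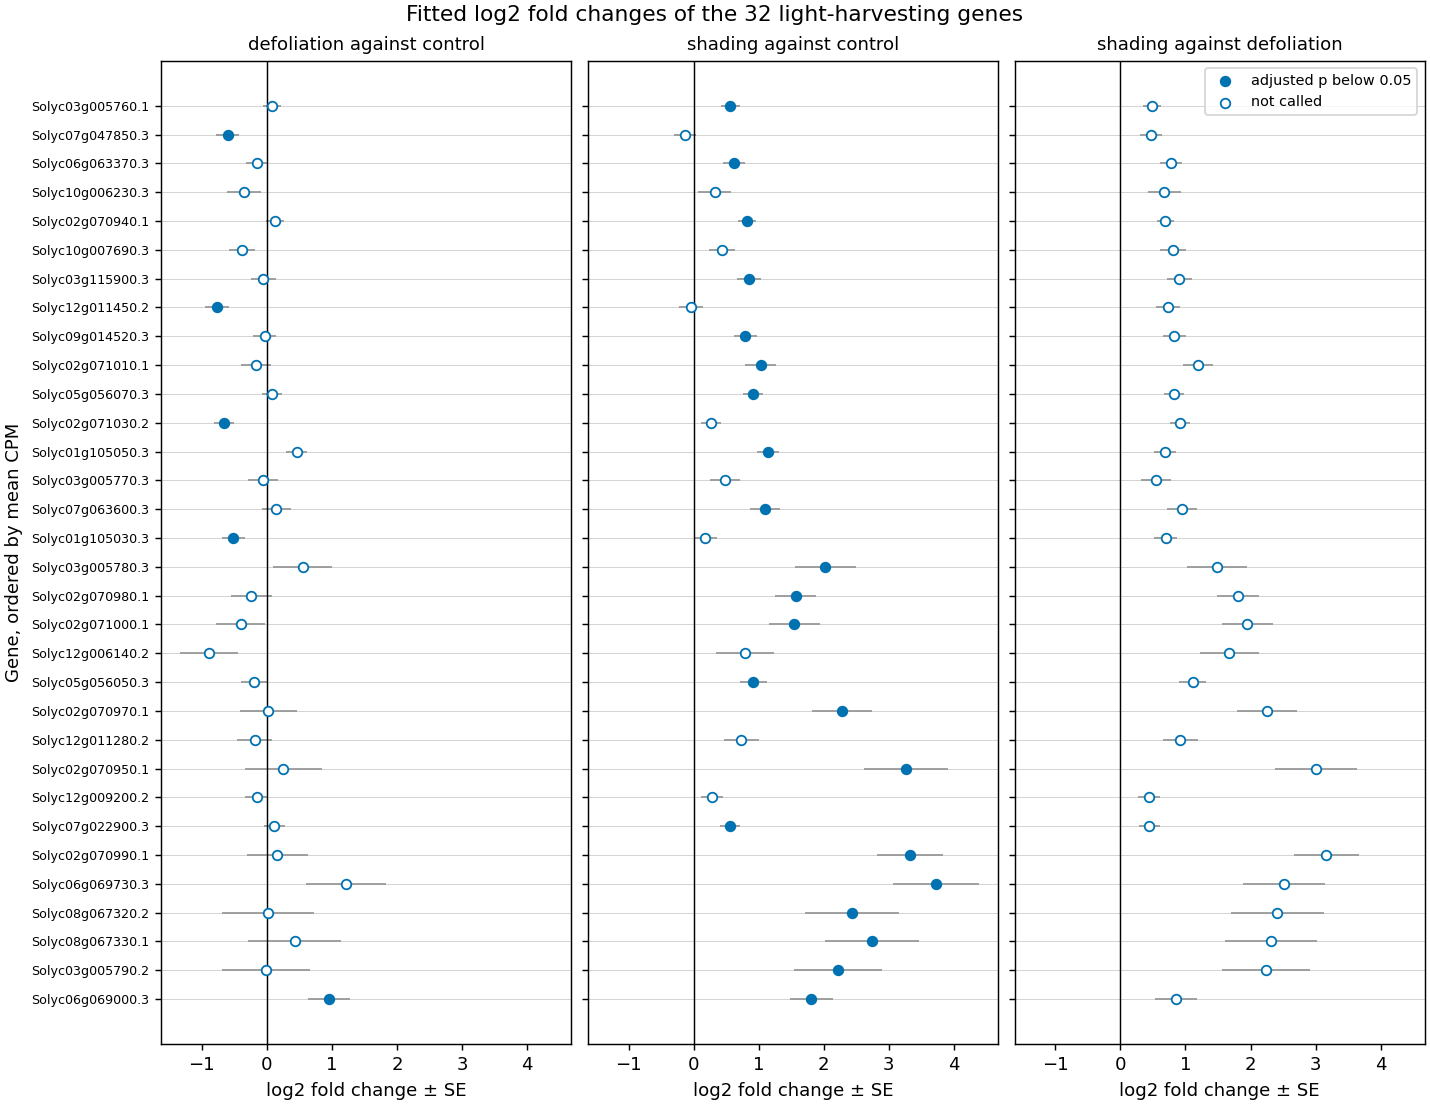
Fitted log2 fold changes with their standard errors (horizontal axes) for the 32 genes, ordered from top to bottom by mean CPM, in the 3 comparisons. Filled points passed an adjusted p of 0.05 in edgeR; 22 are filled for shading against control, 5 for defoliation against control and 0 for shading against defoliation, where all 32 points lie to the right of 0.

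The most strongly changed member was Solyc06g069730.3. Its values were 4.79, 18.3 and 13.6 CPM in control,  40.8, 32.5 and 11.5 CPM after defoliation and at 80.0, 197.4 and 207.7 CPM under shading. Shading exceeded both other groups in every library, while defoliation overlapped control. Its rise under shading was 13.2-fold (3.73 ± 0.67 SE on the log2 scale, edgeR adjusted p = 0.00478).

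Next came a pair of genes in the run on chromosome 2. Solyc02g070990.1 stood at 33.4, 56.9 and 34.2 CPM in control, 60.5, 58.3 and 20.7 CPM after defoliation and 226.3, 411.6 and 615.3 CPM under shading. It rose 10.1-fold under shading (3.33 ± 0.51 SE on the log2 scale, edgeR adjusted p = 0.00206). Solyc02g070950.1 stood at 34.5, 124.2 and 66.9 CPM in control, 118, 110.8 and 40.2 CPM after defoliation and 333.5, 827.1 and 1003 CPM under shading, a 9.59-fold rise (3.26 ± 0.64 SE on the log2 scale, edgeR adjusted p = 0.00703). For both genes the lowest shading library was well above the highest of the other 6.

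The pair on chromosome 8 had few counts and a wide spread. Solyc08g067330.1 stood at 1.04, 2.57 and 3.93 CPM in control and at 4.70, 24.2 and 21.8 CPM under shading (2.74 ± 0.73 SE on the log2 scale, edgeR adjusted p = 0.0224). Solyc08g067320.2 stood at 2.52, 6.22 and 7.58 CPM in control and at 9.04, 41.1 and 38.3 CPM under shading (2.43 ± 0.72 SE on the log2 scale, edgeR adjusted p = 0.0349). In both genes shading replicate 1 lay just above the controls and far below the other shading libraries. After defoliation they stood at 4.74, 4.07 and 1.40 CPM and at 8.17, 6.55 and 1.88 CPM.

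The members with the most reads changed less. Solyc03g005760.1, first by mean CPM in the family and 7th in the whole table, stood at 4476, 5663 and 4648 CPM in control, 5129, 5915 and 4590 CPM after defoliation and 6818, 7516 and 7548 CPM under shading. Its rise under shading was 1.48-fold (0.57 ± 0.14 SE on the log2 scale, edgeR adjusted p = 0.0149). Solyc06g063370.3 stood at 3310, 4176 and 3926 CPM in control, 3941, 3673 and 2651 CPM after defoliation and 5404, 5686 and 6490 CPM under shading, a 1.54-fold rise (edgeR adjusted p = 0.0203). In both genes all shading libraries lay above all others.

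Further high-count members that rose under shading did so by similar amounts. Solyc02g070940.1 went from 2173, 2692 and 2296 CPM in control to 3876, 4194 and 4546 CPM, a 1.76-fold rise (edgeR adjusted p = 0.00226), and stood at 2787, 2719 and 2297 CPM after defoliation. Solyc03g115900.3 went from 1899, 2360 and 2214 CPM to 3324, 3717 and 4636 CPM (1.80-fold, edgeR adjusted p = 0.00827), with 2320, 2344 and 1570 CPM after defoliation. None of the shading libraries of these genes overlapped another group.

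Solyc09g014520.3, the member on chromosome 9, stood at 1668, 1978 and 1837 CPM in control, 1931, 1893 and 1529 CPM after defoliation and 2454, 3291 and 3771 CPM under shading (1.74-fold, edgeR adjusted p = 0.00752). Solyc02g071010.1 stood at 1217, 1774 and 1394 CPM in control, 1385, 1636 and 878.6 CPM after defoliation and 2511, 3186 and 3244 CPM under shading (2.04-fold, edgeR adjusted p = 0.00884). Shading was again apart from both other groups, which overlapped each other.

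The other 11 members called higher under shading had log2 fold changes between 0.56 (Solyc07g022900.3) and 2.28 (Solyc02g070970.1). Among them were Solyc01g105050.3, which rose 2.21-fold (edgeR adjusted p = 0.00113), and Solyc05g056050.3 and Solyc05g056070.3, the pair on chromosome 5, which rose 1.89- and 1.88-fold. Solyc06g069000.3, the member with the lowest mean CPM, rose 3.51-fold from 1.26, 3.38 and 2.34 CPM to 6.85, 7.97 and 9.75 CPM (edgeR adjusted p = 0.00324).

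**Figure D4:**
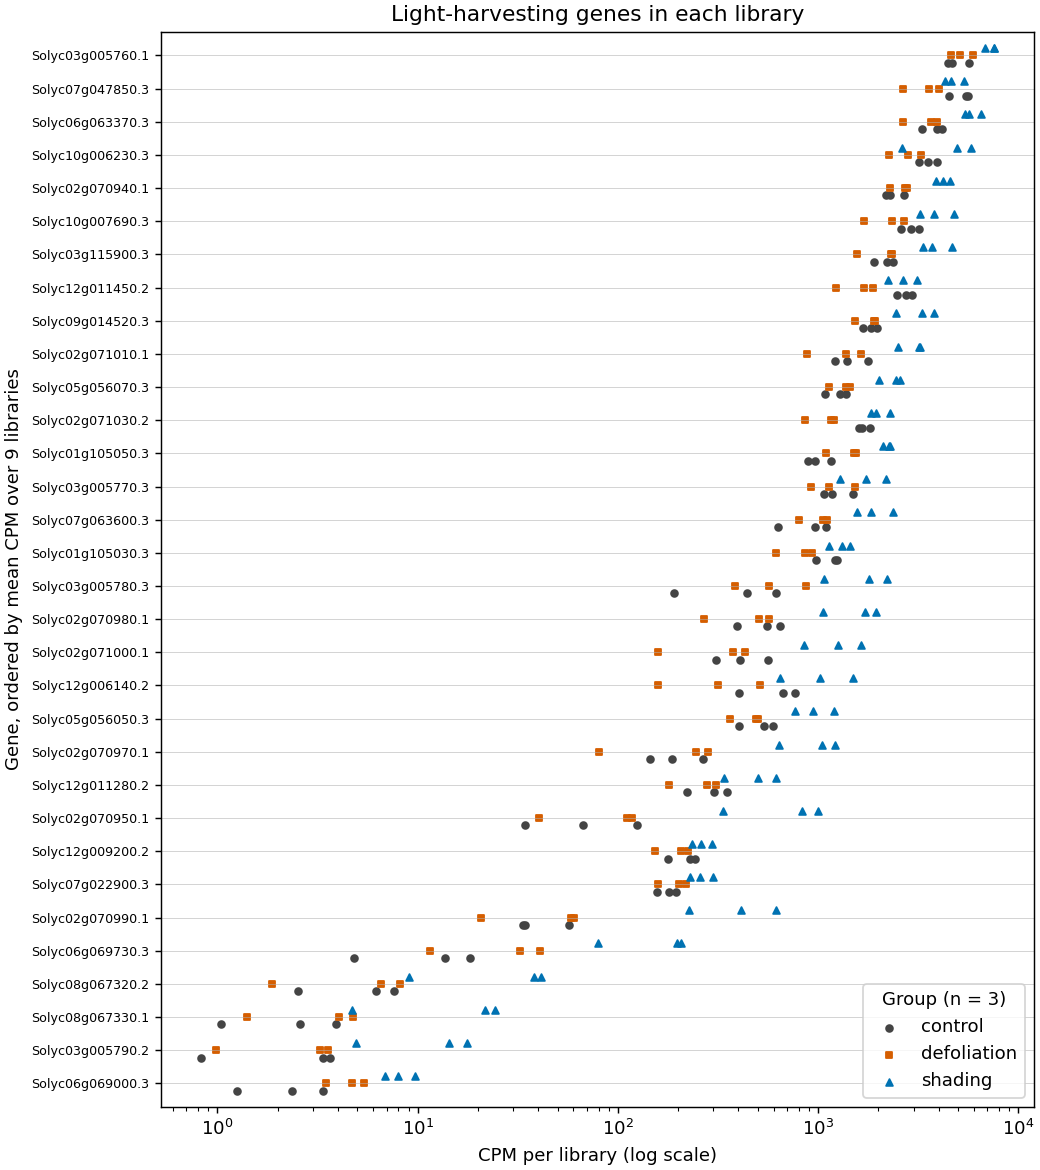
CPM in each library on a logarithmic horizontal axis for the 32 genes, ordered by mean CPM. Circles are control, squares defoliation and triangles shading libraries (n = 3 each). In most genes the triangles lie to the right of both other groups. The gap is narrow or absent in the genes lowest in the plot, as in Solyc08g067330.1, with shading replicate 1 at 4.70 CPM and defoliation replicate 1 at 4.74 CPM.

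For 10 members no change passed under shading, and a missed threshold does not show equal levels. Solyc07g047850.3, second by mean CPM in the family, stood at 4522, 5463 and 5593 CPM in control and at 4605, 4305 and 5328 CPM under shading, with a log2 fold change of -0.13 ± 0.17 (SE, edgeR adjusted p = 0.604). Solyc12g011450.2 stood at 2491, 2952 and 2755 CPM in control and at 2222, 2651 and 3127 CPM under shading (-0.04 ± 0.18 SE, edgeR adjusted p = 0.905). These were the 2 members with a value below 0.

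Among the other uncalled members, Solyc10g006230.3 stood at 3195, 3557 and 3919 CPM in control and at 2622, 4924 and 5789 CPM under shading. Its shading libraries lay on both sides of the controls (0.32 ± 0.26 SE on the log2 scale, edgeR adjusted p = 0.378). Solyc10g007690.3 stood at 2603, 3200 and 2914 CPM in control and at 3213, 3810 and 4789 CPM under shading, groups that did not overlap but were nearly in contact (0.44 ± 0.20 SE, edgeR adjusted p = 0.123). Log2 fold changes of the remaining 6, Solyc01g105030.3, Solyc02g071030.2, Solyc03g005770.3, Solyc12g006140.2, Solyc12g009200.2 and Solyc12g011280.2, ranged from 0.18 to 0.79.

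Of the 22 shading calls 15 were made under each of the 19 alternatives tried, and 7 were lost under at least 1. The number called was 15 without control replicate 1, the library in which every member was below its group mean, and 17 without shading replicate 3. Without control replicate 1 the calls of Solyc02g071000.1 (log2 fold change 1.37), Solyc03g005760.1 (0.50), Solyc06g063370.3 (0.53), Solyc07g022900.3 (0.48), Solyc03g005790.2 (1.80), Solyc08g067320.2 (2.09) and Solyc08g067330.1 (2.37) were lost. Those lost without shading replicate 3 were Solyc02g071000.1 (1.31), Solyc06g063370.3 (0.55), Solyc03g005790.2 (1.88), Solyc08g067320.2 (2.21) and Solyc08g067330.1 (2.52). Without control replicate 3 they were Solyc03g005760.1 (0.53), Solyc07g022900.3 (0.57), Solyc03g005790.2 (2.54) and Solyc08g067320.2 (2.75), and without control replicate 2 or shading replicate 2 they were Solyc03g005790.2 (2.48 and 2.09), Solyc08g067320.2 (2.58 and 2.11) and Solyc08g067330.1 (2.79 and 2.38). Solyc03g005790.2 and Solyc08g067320.2 lost their calls under further alternatives, such as without defoliation replicate 2 (2.22 and 2.44) and with only the compared groups in the fit (2.23 and 2.44), and Solyc07g022900.3 without shading replicate 1 (0.46). Calls were gained by Solyc10g006230.3 without shading replicate 1 (0.59) and by Solyc12g011280.2 without shading replicate 1 (0.94), without defoliation replicate 3 (0.74) or with DESeq2 (0.75).

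Defoliated plants were compared with the same controls to ask this of a leaf left after all others were removed. After defoliation 1 member rose and 4 fell, while over all genes tested 18.9% rose and 15.4% fell (edgeR), so the family's 5 calls of 32 were a smaller share than the 34.3% of all genes called. The median log2 fold change of the members was -0.04, beside -0.02 for all genes, with 14 values above 0 and 18 below, and it ranged from -0.20 to 0.10 when 1 library was left out. The defoliation libraries lay apart from control for the same 5 members, 1 higher and 4 lower, where 26.4% and 25.5% of all genes did. DESeq2 called 2 members higher and 4 lower, against 20.3% and 17.3% of all genes.

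The members that fell were among those that did not pass under shading. Both comparisons use the same control libraries, so these outcomes are not independent of each other. In the direct comparison of shading and defoliation, the log2 differences of these members ran from 0.47 to 0.92, beside the family's median of 0.91. Solyc12g011450.2 fell from 2491, 2952 and 2755 CPM in control to 1703, 1871 and 1225 CPM after defoliation, 0.585-fold of control (-0.77 ± 0.18 SE on the log2 scale, edgeR adjusted p = 0.00947). Solyc02g071030.2 fell from 1602, 1811 and 1657 CPM to 1153, 1200 and 863.8 CPM (-0.66 ± 0.15 SE, edgeR adjusted p = 0.00884), and stood at 1845, 2286 and 1951 CPM under shading. For both genes every defoliation library was below every control library, and both were called under all 19 alternatives.

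Solyc07g047850.3 fell to 3572, 4037 and 2654 CPM after defoliation (-0.60 ± 0.17 SE on the log2 scale, edgeR adjusted p = 0.0225). Among the alternatives that ended this call were leaving out control replicate 2 (-0.56), control replicate 3 (-0.55) and defoliation replicate 3 (-0.45). Solyc01g105030.3 fell from 980.7, 1219 and 1245 CPM to 862.1, 928 and 614.9 CPM (-0.52 ± 0.18 SE, edgeR adjusted p = 0.0466), and stood at 1129, 1320 and 1448 CPM under shading. Among other alternatives, it did not pass without control replicate 2 (-0.47) or 3 (-0.46), defoliation replicate 1 (-0.57) or 3 (-0.36), or shading replicate 2 (-0.52) or 3 (-0.52), nor with no filter on low counts (-0.51) or with only the compared groups (-0.52).

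The single member that rose after defoliation was Solyc06g069000.3, at 5.37, 3.48 and 4.71 CPM (0.96 ± 0.33 SE on the log2 scale, edgeR adjusted p = 0.0448), with defoliation replicate 2 hardly above the highest control. Its call was lost under 10 of the 19 alternatives, among them without control replicate 1 (0.66) or 3 (0.96), without defoliation replicate 1 (0.82) or 3 (0.93) and without any 1 of the shading replicates (0.96 each). Solyc01g105050.3, at 888.3, 1159 and 966 CPM in control and 1539, 1507 and 1089 CPM after defoliation, just missed the threshold (0.46 ± 0.16 SE, edgeR adjusted p = 0.0507). It passed without control replicate 2 (0.58) or defoliation replicate 3 (0.60), with a stricter filter (0.46) and with DESeq2 (0.45).

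The remaining 26 members were not called after defoliation, and their log2 fold changes ran from -0.89 (Solyc12g006140.2, 315.1, 514 and 159.4 CPM against 401.4, 762.3 and 665.5 in control) to 1.21 (Solyc06g069730.3). The standard errors of these extremes were 0.45 and 0.62. Among the 10 members with the highest mean CPM, those not yet given for defoliation were Solyc10g006230.3, at 2823, 3254 and 2261 CPM (log2 fold change -0.36 ± 0.26 SE), and Solyc10g007690.3, at 2339, 2691 and 1689 CPM (-0.38 ± 0.20 SE). Defoliation replicate 3 was the lowest library of its group in each.

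Shading and defoliation share their control libraries, so the difference between them rests on the direct comparison, which asks whether darkened and removed leaves leave the family at different levels. All 32 members stood higher under shading than after defoliation, with log2 differences from 0.44 to 3.17 and a median of 0.91, beside -0.03 for all genes. None passed after adjustment in edgeR, with adjusted p-values from 0.0889 to 0.286, in a comparison where 0.00977% of all genes were called higher and 0.00488% lower. All 32 had an unadjusted edgeR p below 0.05 in this direction, as did 7.99% of all genes, while 0 had one in the other direction, against 8.65%. The libraries of the treatments did not overlap for 29 of 32, against 10.4% of all genes in that direction and 11.4% in the other. DESeq2 called 25 of the 32 higher, against 2.86% of all genes, and 0 lower, against 2.12%. The value of each member stayed above 0 in all 19 alternatives, and DESeq2 was the only one of them with a call among the members.

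The smallest adjusted p-values in this comparison belonged to genes of chromosome 2. Solyc02g070990.1 was 8.99-fold higher under shading than after defoliation (3.17 ± 0.50 SE on the log2 scale, edgeR adjusted p = 0.0889), and Solyc02g071030.2 was 1.89-fold higher (0.92 ± 0.16 SE, edgeR adjusted p = 0.0889). The 3 members whose treatment groups overlapped were Solyc10g006230.3, Solyc03g005770.3 and Solyc08g067330.1. In the first, shading replicate 1 at 2622 CPM lay below 2 of the defoliation libraries.

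Members differed in the size of the shading response, and smaller responses went with more reads in control leaves. The 7 members with a control mean under 100 CPM had log2 fold changes of 1.81 to 3.73 under shading against control, and all 7 were called higher. The 10 members between 100 and 1000 CPM ranged from 0.28 to 2.28 with 7 called, and the 15 members at 1000 CPM or more from -0.13 to 1.14 with 8 called. These values share the control libraries with the classes. The difference of shading and defoliation, which does not use them, had medians of 2.42, 1.29 and 0.74 in the 3 classes, and Spearman's rho across the 32 members with control CPM was -0.62, as a description of genes measured in the same libraries.

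In the difference of shading and defoliation the 8 genes on chromosome 2 followed that order without exception. From Solyc02g070940.1, Solyc02g071030.2 and Solyc02g071010.1, with control means of 2387, 1690 and 1462 CPM, to Solyc02g070980.1, Solyc02g071000.1 and Solyc02g070970.1, with 531.1, 426.3 and 198.9 CPM, the log2 differences of shading and defoliation were 0.69, 0.92, 1.20, 1.81, 1.95 and 2.26. Solyc02g070950.1 and Solyc02g070990.1, with 75.2 and 41.5 CPM in control, had 3.01 and 3.17 (rho -1 over 8 genes). The standard errors of neighbours in this order overlapped, except between Solyc02g071010.1 and Solyc02g070980.1. Under shading against control 7 of the 8 were called higher, and Solyc02g071030.2 was the exception. That comparison did not keep the order, as Solyc02g071030.2 (0.26) lay below Solyc02g070940.1 (0.82), and Solyc02g071000.1 (1.55) just below Solyc02g070980.1 (1.57).

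**Figure D5:**
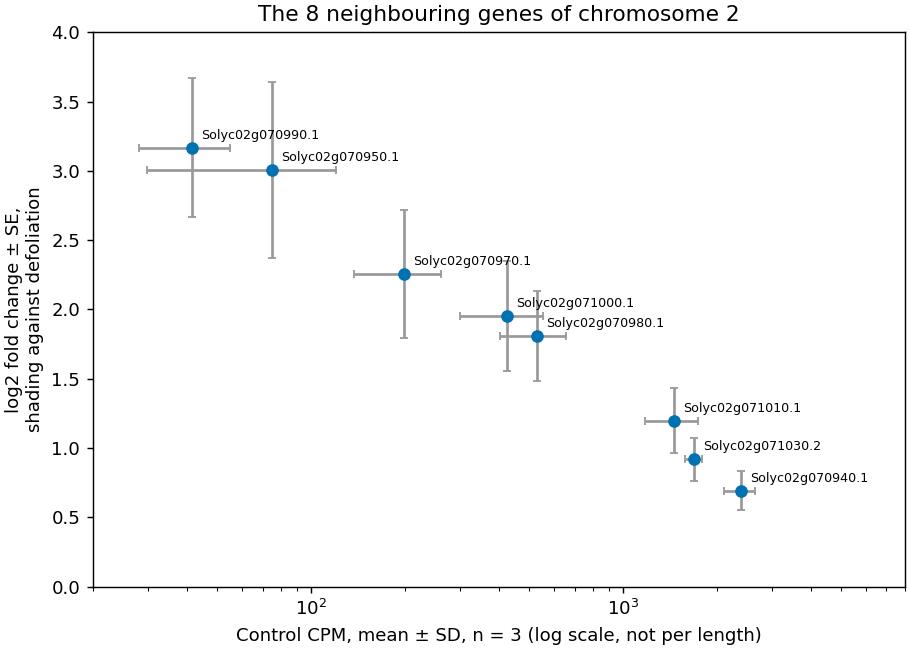
Control CPM (horizontal axis, logarithmic, mean ± SD, n = 3, not divided by length) against the log2 fold change of shading against defoliation (vertical axis, ± SE) for the 8 genes with neighbouring identifiers on chromosome 2. The difference is 3.17 in the gene with the fewest control reads and 0.69 in the gene with the most.

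RSEM shares out reads that match several genes by estimation, so counts of single copies in such runs are uncertain and sums over a run are firmer. The 8 genes of chromosome 2 together held 5910, 7930 and 6596 CPM in control, 6636, 7003 and 4611 CPM after defoliation and 11340, 14910 and 16169 CPM under shading. That sum was 2.08-fold of control under shading and 0.893-fold after defoliation. For the 4 neighbouring genes of chromosome 3 the sums were 6590 ± 1040, 7013 ± 1220 and 10740 ± 1420 CPM in control, defoliation and shading (SD, n = 3), for the pair on chromosome 5 they were 1757 ± 238, 1768 ± 235 and 3304 ± 496 CPM, and for the pair on chromosome 1 they were 2153 ± 259, 2180 ± 413 and 3516 ± 255 CPM. In each of these sums all shading libraries lay above all libraries of the other groups.

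The make-up of the family, which no scaling of libraries affects, differed between groups as well. The run on chromosome 2 made up 16.2%, 17.1% and 15.6% of the family's counts in control, 17.2%, 16.7% and 16% after defoliation and 21.2%, 22.8% and 21.6% under shading. Solyc12g011450.2 made up 6.85%, 6.37% and 6.50% in control, but 4.42%, 4.47% and 4.26% after defoliation and 4.15%, 4.05% and 4.18% under shading, so that its part of the family was lower in both treatments and varied little between replicates. Solyc07g047850.3 likewise held 12.5% ± 0.71 in control, 9.38% ± 0.23 after defoliation and 7.43% ± 1.0 under shading (SD, n = 3). Such parts also fall when other members rise. In CPM both genes were called lower after defoliation (log2 fold change -0.77 and -0.60). Under shading against control they were not called (-0.035 and -0.13, edgeR adjusted p = 0.905 and 0.604).

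The pair of neighbours on chromosome 1 differed from each other. Solyc01g105050.3 went from 2.41% ± 0.11 of the family in control to 3.79% ± 0.20 after defoliation and 3.48% ± 0.44 under shading, while Solyc01g105030.3 went from 2.75% ± 0.16 to 2.20% ± 0.05 and 2.02% ± 0.09 (SD, n = 3). For each of these genes control and treated libraries lay apart, in opposite directions. This holds for parts of the family, which fall when other members rise. In CPM both genes had log2 fold changes above 0 under shading against control, 1.14 for Solyc01g105050.3 and 0.18 for Solyc01g105030.3, the latter not called (edgeR adjusted p = 0.485).

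Against control, genes with identifiers between members, which are no members, did not all follow them. Between the pair of chromosome 1, Solyc01g105040.3 had log2 fold changes of -0.41 after defoliation (edgeR adjusted p = 0.0474) and 0.11 under shading (edgeR adjusted p = 0.58). In the run of chromosome 2, Solyc02g071020.3 had -0.66 (edgeR adjusted p = 0.0679) and 0.63 (edgeR adjusted p = 0.0877). Solyc03g005775.1, between members on chromosome 3, rose under shading (1.95, edgeR adjusted p = 0.0099) at 3.33, 7.34 and 9.88 CPM against 1.12, 2.00 and 2.17 CPM in control. In the pair of chromosome 5, Solyc05g056055.1 had 0.10 under shading (edgeR adjusted p = 0.583), and Solyc05g056060.3 had at most 0.84 CPM in any library and was not tested. For shading against defoliation, Solyc01g105040.3 had 0.52, Solyc02g071020.3 1.29 and Solyc03g005775.1 1.61 (edgeR adjusted p = 0.14, 0.101 and 0.141). These values lay within the members' range of 0.44 to 3.17 in that comparison, while Solyc05g056055.1 had 0.035 (edgeR adjusted p = 0.915). Libraries do not mark strand, so reads of overlapping genes cannot be told apart.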

How the data were processed

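The deposited table holds RSEM's expected counts for each gene in 9 libraries, as whole numbers. Per the submitters' processing notes the authors used Trim Galore, STAR, RSEM and DESeq2. Genome build, annotation and tool versions were not given in the sources used here. Per the labels' protocols, libraries were made with a TruSeq kit that does not mark strand. None of 23195 identifiers matched the reference table, so gene names, lengths, sequences and lists of other photosynthesis genes were not used.

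Members and lists were chosen with earlier results of these data known. Values in every library are given for the 10 members with the highest mean CPM and, per comparison and direction, the 5 called members with the largest change; further members and neighbours are named by place or as exceptions.

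Genes were kept by filterByExpr (20480, 88.3%), scaled by TMM and tested in edgeR 4.0.16 (R 4.3.3) by the quasi-likelihood F-test, robust, with all 9 libraries in one fit and 1 coefficient per group (common coefficient of biological variation 0.23). Benjamini-Hochberg adjustment ran over all genes tested, with calls below 0.05. A standard error is the log2 fold change divided by the square root of F. Alternatives were DESeq2 1.42.0, limma-voom (limma 3.58.1), the newer quasi-likelihood method, other scalings and filters, fits of the compared groups alone, a replicate block and leaving out each library. Replicates are biological per the series' design text.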

Additional observations from a re-analysis of the deposited data

How the results depend on the processing

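Under shading against control the number of members called higher lay between 15 and 23 over the 9 fits that leave out a library and between 20 and 23 under the 10 other alternatives, with 0 called lower throughout. When a library was left out, median log2 fold changes lay between -0.20 and 0.10 for defoliation against control, between 0.75 and 1.03 for shading against control and between 0.76 and 1.01 for shading against defoliation. The 1 member called higher after defoliation became 2 with DESeq2, 0 with upper-quartile scaling, 2 with the stricter filter, 0 with only the compared groups and 0 with the replicate block, and between 0 and 2 when a library was left out. The 4 called lower became 2 with the replicate block and between 2 and 4 when a library was left out. For shading against defoliation, 0 higher in edgeR became 25 with DESeq2, and 0 in each fit that left out a library. Replicate numbers were not taken to pair the samples, since 2 of 9 same-numbered pairs across groups had deviations correlated above 0.1 (range -0.21 to 0.15). Differently numbered pairs across groups had a similar range, from -0.19 to 0.20. With the replicate block, shading against control had 20 calls (0 lower) and shading against defoliation 0; calls were lost for Solyc01g105030.3 (-0.52), Solyc07g047850.3 (-0.60) and Solyc06g069000.3 (1.01) after defoliation and for Solyc03g005790.2 (2.23) and Solyc08g067320.2 (2.37) under shading. The cause of these shifts was not tested.

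Of 1026 values of the 18 members given in full under the alternatives, 18 changed sign, none of them past the threshold. For defoliation against control the ranges when a library was left out were -0.091 to 0.84 for Solyc02g070950.1, -0.068 to 0.52 for Solyc02g070990.1, -0.37 to 0.049 for Solyc02g071010.1, -0.019 to 0.20 for Solyc03g005760.1, -0.15 to 0.11 for Solyc03g115900.3, -0.26 to 0.003 for Solyc06g063370.3, -0.36 to 0.44 for Solyc08g067320.2 and -0.095 to 0.067 for Solyc09g014520.3. Solyc08g067320.2 was also at -0.11 with limma-voom and -0.017 with upper-quartile scaling. For shading against control Solyc12g011450.2 ranged from -0.16 to 0.082. The widest standard errors belonged to members with few reads, such as 0.71 for Solyc08g067330.1 in defoliation against control. Not all such members had wide errors, as Solyc06g069000.3, with the lowest mean CPM, had 0.33 in that comparison.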
